A study of Mus musculus with 38 samples.

Results

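The neurotrophins and their receptors were followed through the genes Bdnf (brain-derived neurotrophic factor), Ntf3 (neurotrophin 3), Ntrk2 (the receptor TrkB), Ntrk3 (TrkC), Ngfr (the receptor p75) and Nrn1 (neuritin), 6 of the 23420 genes counted in each library. The members were taken by their symbols, and all 6 were found. The cells were granule neurons of the dentate gyrus of adult male mice aged 8 to 12 weeks, on a C57BL/6J background. Every mouse, controls included, was of the Arc::dVenus line, which makes a destabilized fluorescent protein from the Arc promoter, so that dVenus+ cells are cells with recent activity of that promoter. 12 mice had been fear conditioned (FC, a tone and a foot shock in a new context), 4 mice had gone through the same training, tone included, but without a shock (NS), and 3 mice had stayed in the home cage (HC). The FC and NS mice were sampled 24 h after training. From each mouse the contents of 10 dVenus+ cells were pooled into 1 library and those of 10 neighboring dVenus- cells into another, which gave 38 libraries from 19 mice. A pool gives 1 value for its 10 cells, so fewer cells with a transcript and less of it per cell cannot be told apart.

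Neurotrophins are secreted proteins that neurons need for survival and growth and that adult synapses use in plasticity. BDNF acts through TrkB and neurotrophin 3 through TrkC, both receptor tyrosine kinases that signal through adaptors to the Ras and ERK, the PI3K and Akt and the phospholipase C branches, whereas p75 binds every neurotrophin, and its precursor too, and is no kinase. Transcription of Bdnf rises with neuronal activity and granule cells carry the protein in their mossy fiber axons. Neuritin is not a neurotrophin but a small membrane-anchored protein whose gene is induced by activity and by BDNF, and it promotes the growth of neurites. Both Trk genes also make truncated receptors without the kinase, which reads summed over a gene do not separate, and the same holds for the alternative first exons of Bdnf.

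Bdnf, the member that differed, has several promoters, and 7 windows of 250 bases before an annotated start were taken from RefSeq (GRCm38.p6). They were searched on both strands for the letters TGACG, the core of the motif bound by CREB, because Bdnf is a known target of this activity-dependent factor. Window 3, counted along the gene, held 1 such core, 30 bases before the start, and the other 6 held none. Among 32851 windows of all genes 17.8% held the core and 1.55% the full palindrome TGACGTCA, which contains it. The lines that follow give this window of Bdnf at chr2:109692186-109692435 on the plus strand, with the core, read here on the opposite strand, in capitals, then a stretch of 30 bases from the same window (chr2:109692389-109692418) beside the one from Scg2 (chr1:79440076-79440105, minus strand), the gene whose pattern over the libraries was most like that of Bdnf, where the capitals mark the full palindrome 60 bases before the start.
Bdnf, window 3: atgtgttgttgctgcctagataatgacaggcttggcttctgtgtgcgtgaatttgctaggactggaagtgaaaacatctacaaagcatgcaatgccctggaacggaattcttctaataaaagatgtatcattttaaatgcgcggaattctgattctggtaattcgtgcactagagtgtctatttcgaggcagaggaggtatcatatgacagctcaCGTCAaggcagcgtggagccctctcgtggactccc
Bdnf, around the core: tatgacagctcaCGTCAaggcagcgtggag
Scg2, around the palindrome: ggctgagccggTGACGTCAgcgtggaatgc
Annotated exons of Scg2 (GENCODE gene models) cover 94 of the 250 bases of its window. Exons cover 0 bases of window 3 of Bdnf. The letters describe the windows, and binding was not measured. The windows of Ntf3 (2), Ntrk2 (1) and Ngfr (1) held no core, and Ntrk3, Nrn1, Arc and Nptx2 were not searched here.

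Between 1352288 and 18394761 reads per library were counted on genes (median 8013005), and 7037 to 13286 genes had at least 1 read. Levels are given as CPM, reads scaled to the total on genes and to the composition of each library. The FC libraries had been made in 3 series, with 2, 4 and 6 mice, and those of NS and HC mice together in another, so the level of a gene in FC and in the other groups cannot be told apart from the series, whereas dVenus+ and dVenus- cells of a mouse were always in the same one. Arc, whose promoter selected the cells, was higher in dVenus+ cells in 19 of 19 mice. The dVenus- libraries of FC mice 06, 07 and 14 nevertheless held 1276, 1095 and 2549 Arc reads, against at most 16 in the other 9, and the log2 fold changes of the members in FC are therefore also given without these mice. Granule cell markers were detected in every group (7 or 8 of 8 genes, Tdo2 at 0 where 7), but their summed level was lower in dVenus+ than in dVenus- cells in 11 of 12 FC, 4 of 4 NS and 2 of 3 HC mice. In FC it ran from 332 to 2766 CPM in dVenus+ and from 1319 to 3605 in dVenus- cells, and 4 of the genes (Calb1, C1ql2, Camk2a and Stxbp6) were called lower. The summed level of 6 microglial markers, all detected, ran from 12.1 to 1050.5 CPM in FC dVenus+ and from 0.62 to 299 in dVenus- cells, higher in dVenus+ cells in 10 of 12 mice, with C1qa and Csf1r called higher. That of interneuron markers ran from 15.1 to 396 CPM in FC dVenus+ (6 of 6 genes) and from 30.8 to 2257 in dVenus- cells (5 of 6, Vip at 0), and Gad1 was called lower. In NS the microglial sum was higher in dVenus+ cells in 4 of 4 mice (38.6 to 808 against 1.54 to 166 CPM), and so was that of 4 mossy cell markers (73.5 to 105.6 against 7.85 to 47.5 CPM, Drd2 at 0 in dVenus- cells), without a call. Over all mice the 3 microglial markers tested were called higher. The part of these other transcripts in the results was not tested.

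Bdnf was higher in dVenus+ than in dVenus- cells of every mouse, in all 3 groups. In FC mice the level in normalized CPM was 184 at the lowest, 545 at the median and 859 at the highest in dVenus+ cells, and 23.6 at the lowest, 75 at the median and 214 at the highest in dVenus- cells. The groups overlapped through 1 dVenus- library, that of mouse 09 at 214, and 1 dVenus+ library, that of mouse 06 at 184; the next highest dVenus- library stood at 153. The log2 fold change was 2.49 ± 0.33 (SE, n = 12 mice), a 5.61-fold difference with a range of 1 SE from 4.45 to 7.07 (edgeR quasi-likelihood test with the mouse as block, Benjamini-Hochberg adjusted p = 5.26e-05). By its p-value Bdnf was number 9 of the 9709 genes tested in FC. Of those genes 4.35% were called, that is, had an adjusted p under 0.05 and an absolute log2 fold change over 1, 1.5% as higher and 2.84% as lower in dVenus+ cells, and Bdnf was the one member called.

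**Figure D1:**
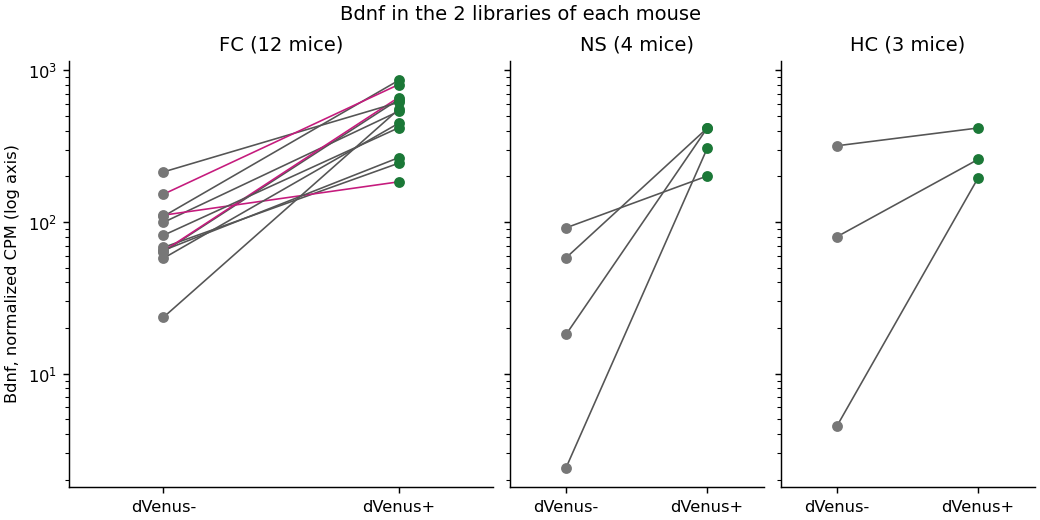
Bdnf in normalized CPM (log axis) in the dVenus- (gray points) and dVenus+ library (green points) of each mouse, joined by a line, for 12 FC, 4 NS and 3 HC mice. Magenta lines are FC mice 06, 07 and 14, whose dVenus- libraries held the most Arc reads. All 19 lines rise from dVenus- to dVenus+, by 1.66-fold (mouse 06) to 23.4-fold (mouse 12) in FC.

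The size of the Bdnf difference varied among FC mice, from a ratio of 1.66 in mouse 06 to 23.4 in mouse 12. In the 3 dVenus- libraries with the most Arc reads, Bdnf was at 111, 64.3 and 153 CPM, against a range of 23.6 to 214 and a median of 68.1 in the other 9. Without mice 06, 07 and 14 the log2 fold change was 2.60 ± 0.38 (edgeR, adjusted p = 5.09e-04). Within the FC series of 2, 4 and 6 mice it was 3.11 ± 0.52, 1.96 ± 0.77 and 2.54 ± 0.44, and it passed the adjusted threshold only in the last (edgeR, adjusted p = 0.521, 0.36 and 0.026).

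In NS mice 18, 19, 20 and 21 Bdnf was at 306, 201, 416 and 416 CPM in dVenus+ cells and at 2.41, 91.7, 18.2 and 58.2 in dVenus- cells. Every dVenus+ library was above every dVenus- library, and the share of all genes that separate in this way was not counted. The log2 fold change was 3.48 ± 1.06 (SE, n = 4 mice), which did not pass the adjusted threshold (edgeR, adjusted p = 0.357). In this comparison 0.0489% of 8187 genes were called, 4 in all. DESeq2's Wald test called Bdnf in NS (log2 fold change 3.68, adjusted p = 0.0102), along with 671 genes in all.

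In HC mice 15, 16 and 17 Bdnf was at 259, 196 and 417 CPM in dVenus+ cells and at 80.2, 4.54 and 319 in dVenus- cells. Mouse 17 had the highest level in both kinds of cell, a ratio of 1.31, and its dVenus- library was above the dVenus+ libraries of the other two mice. The log2 fold change was 1.99 ± 1.3 (SE, n = 3 mice), which was not called (edgeR, adjusted p = 0.736). Without mouse 16 it was 0.84. The dVenus- libraries of HC mouse 16 and of NS mouse 18, the lowest in Bdnf, also had the fewest genes detected of all libraries, 7037 and 7419. The part of this in their Bdnf values was not tested. Of the 7588 genes tested in HC 0% were called by edgeR, with 532 at an unadjusted p under 0.05, whereas DESeq2 called 625, Bdnf not among them.

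With 1 difference fitted over all 19 mice, Bdnf had a log2 fold change of 2.66 ± 0.36 (edgeR, adjusted p = 5.91e-06) and was number 8 of 8885 genes. Here 6.06% of the genes were called, 2.81% as higher and 3.24% as lower, and Bdnf was again the one member called. Without mice 06, 07 and 14 its value was 2.71 ± 0.41. The interaction of cell type and training was tested on 14075 genes that reached 10 counts in 3 or more libraries, and 0% passed in the comparison of FC with NS, 0% in that of FC with HC and 0% in that of NS with HC (edgeR, with 1152, 1304 and 968 genes at an unadjusted p under 0.05; DESeq2 passed 1203, 1573 and 1339). For Bdnf the dVenus difference was lower in FC than in NS by a log2 value of -1.07 ± 0.92 (edgeR, adjusted p = 0.801), and differed between FC and HC by 0.33 ± 1.05 (adjusted p = 1). A dependence of the Bdnf difference on training was thus not detectable with these numbers of mice.

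**Figure D2:**
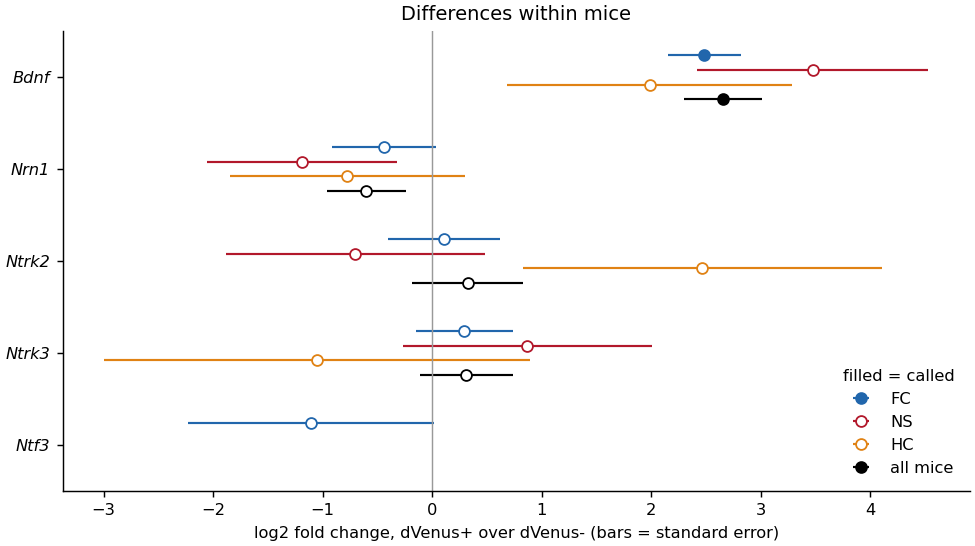
Log2 fold change of dVenus+ over dVenus- cells with its standard error for the members tested in FC (blue), NS (red), HC (orange) and over all mice (black); filled points were called. The Bdnf estimates lie between 1.99 and 3.48, and only those of FC and of all mice were called.

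Ntf3, the preferred ligand of TrkC, was detected unevenly. It had 0 reads in 16 of 38 libraries and at least 10 in 16, while 0 reads allow a level of up to 0.123 to 1.85 CPM (3 counts), depending on the library, as a limit of counting error only. In FC it was at 0, 0.12 and 34.5 CPM (lowest, median, highest) in dVenus+ cells and at 0, 5.70 and 26.9 in dVenus- cells. It was lower in the dVenus+ library of 9 of 12 mice and higher in 3, a log2 fold change of -1.10 ± 1.12 that was not called by edgeR (adjusted p = 0.673). Without mice 06, 07 and 14 it was -0.23 ± 1.34. DESeq2 called Ntf3 in FC, with a log2 fold change of -3.89 (adjusted p = 0.0136).

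In NS mice the dVenus+ cells of mouse 20 held 55 Ntf3 reads and no other library more than 19, and in HC mice all 644 reads came from the dVenus- cells of mouse 15. Both groups were below the count filter for this gene. DESeq2 passed an interaction for Ntf3 in FC against HC (log2 difference 18.5) and in NS against HC (20.9), each with those 644 reads on its HC side. edgeR passed neither of them (8.78 ± 6.90, adjusted p = 0.702, and 11.9 ± 7.06, adjusted p = 0.799).

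Ntrk2 had reads in all 38 libraries, and in FC it did not separate the 2 kinds of cell. Its level was 4.88, 111 and 314 CPM (lowest, median, highest) in FC dVenus+ and 22.3, 120 and 357 in dVenus- cells, higher in dVenus+ cells in 6 mice and lower in 6. The log2 fold change was 0.11 ± 0.52 (edgeR, adjusted p = 0.947), and 0.04 ± 0.60 without mice 06, 07 and 14. Mice 01 and 05 were at the extremes, with 4.88 against 161 CPM in one and 193 against 22.3 in the other.

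In NS mice 18 to 21 Ntrk2 was at 98.5, 90.5, 21.6 and 54.0 CPM in dVenus+ and at 23.6, 117, 395 and 76.8 in dVenus- cells, lower in dVenus+ cells in 3 of 4 mice (edgeR, log2 fold change -0.70 ± 1.18, adjusted p = 0.889). In HC mice 15, 16 and 17 it was at 256, 639 and 127 CPM in dVenus+ cells, all above the 79.8, 0.83 and 81.7 of dVenus- cells. The share of all genes that separate in this way in HC was not counted. The HC difference of Ntrk2 was not called, in a comparison where 0% of genes were (edgeR, log2 fold change 2.47 ± 1.64, adjusted p = 0.736). Without mouse 16 its log2 fold change was 0.96. Astrocytes carry much truncated TrkB. The summed level of 7 astrocyte markers was higher in dVenus+ cells in 3 of 3 HC mice. It ran from 1618 to 1834 CPM in HC dVenus+ and from 578 to 865 in dVenus- cells. All 7 genes were detected in dVenus+ and 6 in dVenus- libraries, where Aldh1l1 was at 0. Mouse 16 had the widest Ntrk2 difference. Its astrocyte sums were the lowest of the HC dVenus+ (1618 CPM) and the highest of the HC dVenus- libraries (865 CPM). In NS the sum was higher in dVenus+ cells in 2 of 4 mice, with 1020 to 3475 CPM against 528 to 3654. In FC mice the astrocyte sum was higher in dVenus+ cells in 3 of 12, with 45.5 to 1699 CPM in dVenus+ and 157 to 2985 in dVenus- cells. The part of astrocyte RNA in the Ntrk2 values was not tested.

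Ntrk3 was as variable as Ntrk2 and was not called anywhere. In FC it was at 62.2, 126 and 216 CPM (lowest, median, highest) in dVenus+ and at 10.5, 114 and 310 in dVenus- cells, higher in dVenus+ cells in 7 of 12 mice (edgeR, log2 fold change 0.30 ± 0.45, adjusted p = 0.8, and 0.315 ± 0.54 without mice 06, 07 and 14). In NS it was higher in 3 of 4 mice, mostly through mouse 20 with 242 against 17.5 CPM, and without that mouse the log2 fold change fell from 0.87 ± 1.14 to 0.01. In HC it was at 45.7, 0 and 25.8 CPM in dVenus+ cells of mice 15, 16 and 17 and at 138, 18.8 and 7.19 in dVenus- cells (edgeR, log2 fold change -1.05 ± 1.94, adjusted p = 0.899). This value rested on single mice, running from -2.75 without mouse 17 to -0.14 without mouse 16.

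Ngfr was the rarest member, with 192 reads in all 38 libraries together and at most 16 in any of them. Its level ran from 0 to 4.45 CPM, with the highest value in an HC dVenus+ library, and it did not pass the count filter in the comparisons of dVenus+ with dVenus- cells. Fitted without the filter, its log2 fold change was -0.27 ± 0.84 in FC (edgeR, adjusted p = 0.931), so a difference in p75 could not be judged at this depth. In the interaction fit, whose filter asked for fewer libraries, Ngfr was tested and did not pass, with a log2 difference of -1.71 ± 1.74 for FC against NS, -3.38 ± 2.12 for FC against HC and -1.68 ± 2.53 for NS against HC (edgeR, adjusted p = 0.845, 0.61 and 1).

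Nrn1 was not called in any comparison, and its fitted differences had the opposite sign to those of Bdnf. In FC it was at 0.62, 158 and 283 CPM (lowest, median, highest) in dVenus+ and at 66.8, 144 and 324 in dVenus- cells, lower in dVenus+ cells in 8 of 12 mice, with a log2 fold change of -0.44 ± 0.48 (edgeR, adjusted p = 0.698). Mouse 05 stood apart, with 1 Nrn1 read in dVenus+ cells against 256 CPM in dVenus- cells, and without it the log2 fold change was -0.19. Without mice 06, 07 and 14 it was -0.22 ± 0.57. In the FC series of 6 mice alone the direction was the opposite, 0.60 ± 0.46.

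In NS mice 18 to 21 Nrn1 was at 65.7, 99.0, 138 and 139 CPM in dVenus+ and at 201, 398, 192 and 169 in dVenus- cells. The groups did not overlap, and the share of all genes that separate in this way in NS was not counted. The log2 fold change of Nrn1 was -1.19 ± 0.87 (edgeR, adjusted p = 0.7), not called in a comparison where 0.0489% of genes were. HC mice gave 71.3, 37.1 and 419 CPM in dVenus+ and 231, 52.1 and 316 in dVenus- cells of mice 15, 16 and 17, lower in 2 of 3 (edgeR, log2 fold change -0.77 ± 1.08, adjusted p = 0.855). Over all mice Nrn1 was lower in dVenus+ cells in 14 of 19, with a log2 fold change of -0.60 ± 0.36 (edgeR, adjusted p = 0.345). Its exons share 501 bases, 22.3% of their length, with those of Fars2 on the other strand, and reads there cannot be told apart because the libraries do not mark strand. Bdnf exons share 896 bases (14.4%) with Gm45346, an antisense gene that was not among the genes counted.

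**Figure D3:**
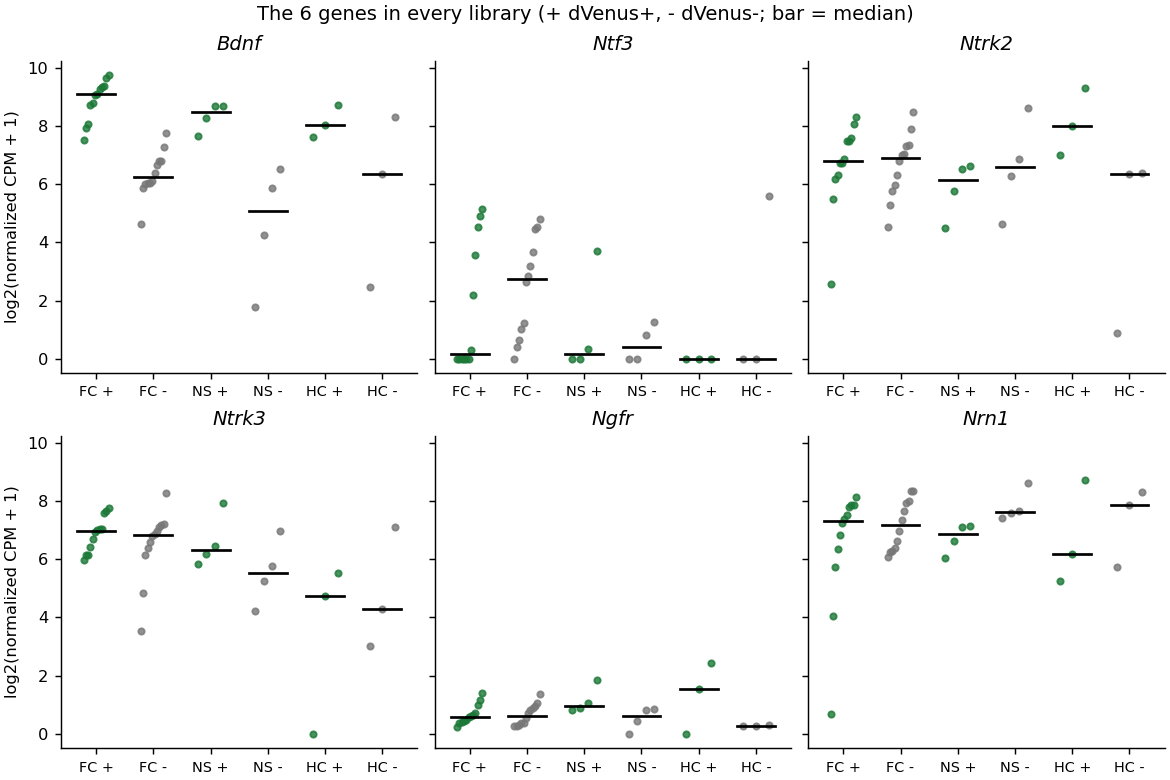
Log2 of the normalized CPM plus 1 for each of the 6 genes in every library, by training and kind of cell (green dVenus+, gray dVenus-; the bar is the median). The Bdnf columns overlap by 1 library of each kind in FC and do not overlap in NS. Those of Nrn1 do not overlap in NS either, with dVenus+ the lower. The share of all genes without overlap in NS was not counted. Ntf3 and Ngfr lie near 0 in most libraries, and Ntrk2, Ntrk3 and Nrn1 overlap in FC.

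To set the members against one another, the level was divided by the length of the exons (CPM per kb, GENCODE gene models, which may be longer than the transcripts counted). In FC dVenus+ cells Bdnf came first with a median of 87.6, then Nrn1 with 70.4, Ntrk2 with 5.74, Ntrk3 with 4.17, Ngfr with 0.15 and Ntf3 with 0.07. Bdnf and Nrn1 were not separated there, Bdnf being above in 7 of 12 libraries, nor were Ngfr and Ntf3 (6 of 12), and Ntrk2 was above Ntrk3 in 9 of 12. In FC dVenus- cells Nrn1 came first with 64.2 and Bdnf second with 12.1, and Nrn1 was above Bdnf in 12 of 12. The same exchange of the top places was seen in NS medians, with 58.0 for Bdnf and 52.8 for Nrn1 in dVenus+ and 87.3 for Nrn1 and 6.14 for Bdnf in dVenus- cells, and in HC medians, with 41.7 and 31.7 in dVenus+ and 102.5 and 12.9 in dVenus- cells. The median of Bdnf was above those of the 3 receptor genes in every group, although in NS dVenus- cells it was above Ntrk2 in 2 of 4 libraries.

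Across the 3 trainings, the mean Bdnf level in dVenus+ cells was 520 ± 216 CPM in FC (SD, n = 12), 335 ± 103 in NS (n = 4) and 291 ± 114 in HC (n = 3). In dVenus- cells it was 92.6 ± 50.6 in FC, 42.6 ± 40.3 in NS and 134 ± 164 in HC. Neighbors in both orders differed by less than the larger of their SDs. The dVenus+ means of FC and HC, which are not neighbors, lay farther apart than either of their SDs. Training could not be told apart from the library series in these levels.

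Over the 38 libraries the genes whose level followed Bdnf most closely, among 8884 compared by Spearman's rho, were Scg2, a granin of dense-core vesicles (0.868), Arc (0.833) and Nptx2, a secreted synaptic pentraxin (0.808). Part of this likeness is the step between the 2 kinds of cell that Bdnf and these genes showed in FC, and the libraries share mice and series. Among the 19 dVenus+ libraries alone rho was 0.686, 0.621 and 0.428, and among the 19 dVenus- libraries 0.432, 0.273 and 0.671. The closest genes to Ntrk2 were Rab18 (0.633), Nufip2 (0.567) and Fgfr3 (0.553), those to Ntrk3 were Clk3 (0.698), Fastk (0.65) and Atp8b2 (0.649), and those to Nrn1 were Eif4a2 (0.788), Arpc5 (0.76) and Tsen34 (0.697). Between members, rho over the libraries was 0.101 for Bdnf and its receptor gene Ntrk2, -0.0183 for Bdnf and Nrn1 and 0.32 for Ntf3 and Ntrk3. The value farthest from 0 was that of Ngfr and Nrn1 (-0.432), where Ngfr had at most 16 reads in a library. These are descriptions without a test.

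**Figure D4:**
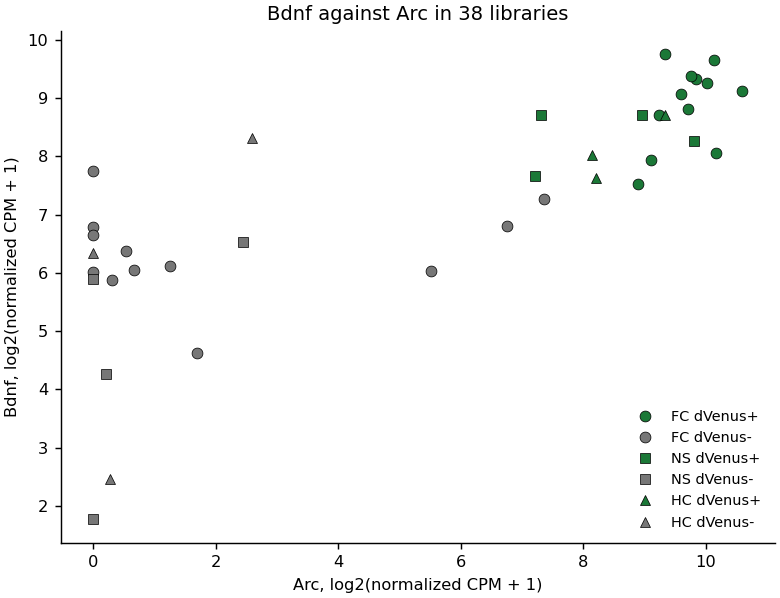
Bdnf against Arc, each as log2 of the normalized CPM plus 1, in the 38 libraries (circles FC, squares NS, triangles HC; green dVenus+, gray dVenus-). The dVenus+ libraries lie at the upper right, and the 3 gray circles with the most Arc are the dVenus- libraries of FC mice 06, 07 and 14. That of mouse 14, at 163 CPM of Arc, lies above the dVenus+ libraries of NS mice 19 and 20 (147 and 157) on this axis.

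Other genes of the pathway were counted in 9 lists with 99 genes, of which 71 passed the count filter in FC. Among these 6 were called higher and 1 lower in FC dVenus+ cells, where 1.5% of all genes tested were called higher and 2.84% lower. The median log2 fold change of the 71 genes was -0.11, and that of all genes tested was also -0.11.

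The list of genes known to be induced by BDNF held 17, and 11 of them passed the count filter in FC. Neuronal activity induces most of these 11 too. Of the 11, 5 were called higher and 0 lower, where 1.5% and 2.84% of all genes tested were, with a median log2 fold change of 2.58. Arc is one of the 5 and marked the cells by design. The others were Nptx2 (log2 fold change 5.50 ± 1.02), Spry2, an inhibitor of receptor tyrosine kinase signaling (2.60 ± 0.55), Npy, the neuropeptide Y precursor (5.18 ± 1.17), and Dusp1, a phosphatase of MAP kinases (4.97 ± 1.24), with edgeR adjusted p of 0.00117, 0.00557, 0.00842 and 0.0179. Spry2 was at 51.4, 94.1 and 405 CPM (lowest, median, highest) in dVenus+ and at 0.32, 20.0 and 60.8 in dVenus- cells, higher in 12 of 12 FC mice. Dusp1 was at 0 in 9 of 12 dVenus- libraries, so its fold change rests on few counts. It reached the 10 counts of the filter in 10 dVenus+ and 2 dVenus- libraries, Npy in 11 and 3, Nptx2 in 11 and 4 and Arc in 12 and 5. These genes passed the filter mainly through dVenus+ cells, so the count and the median of the list partly follow from it. Spry2 reached it in 12 and 11. Npy was not called without mice 06, 07 and 14 (5.49) or without mice 03 and 05 (3.95), whose dVenus+ libraries had the fewest uniquely aligned reads, and Dusp1 was not called without the latter (4.43). Members of the list that did not pass were Vgf (2.58 ± 0.80, edgeR adjusted p = 0.0605), Egr3 (-1.54), Egr1 (-0.82), Homer1 (0.34), Dusp4 (0.46) and Junb (0.46).

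Of the 13 tested regulators of Bdnf transcription 1 was called. Bhlhe40, a repressor of the basic helix-loop-helix family, was lower in dVenus+ cells, with 0, 0.57 and 42.3 CPM (lowest, median, highest) in FC dVenus+ and 0.11, 35.8 and 135 in dVenus- cells (log2 fold change -4.13 ± 0.87, edgeR adjusted p = 0.00421, lower in 11 of 12 mice). Without mice 06, 07 and 14 it was -3.74 and not called. The CREB coactivator Crtc1 was at -0.97 ± 0.36 and the CREB gene itself, Creb1, at 0.43 ± 0.76, neither called (edgeR, adjusted p = 0.134 and 0.836).

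Of the 9 tested Trk adaptors 1 was called higher, Rapgef1, an exchange factor for Rap1 that Crk brings to the receptor (2.31 ± 0.68, edgeR adjusted p = 0.0484, higher in 11 of 12 mice). This call was lost in 10 of 12 fits that left out 1 mouse. No gene of the other lists was called in FC, with 4 tested receptors and co-receptors, 4 enzymes that cleave the precursors, 14 genes of the Ras and ERK arm, 9 of the PI3K and Akt arm and 7 partners of p75, whereas Ntf5, a further ligand, and Nrn1l, a further neuritin, were below the filter. Their smallest p-values in FC belonged to Lingo1, a co-receptor of p75 (1.84 ± 0.56), Furin, which cleaves proneurotrophins (1.13 ± 1.01), Nras (0.90 ± 0.52), Akt1 (-1.90 ± 0.63) and Traf6, which binds p75 (-2.01 ± 0.83), at edgeR adjusted p of 0.0555, 0.616, 0.378, 0.0831 and 0.177.

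**Figure D5:**
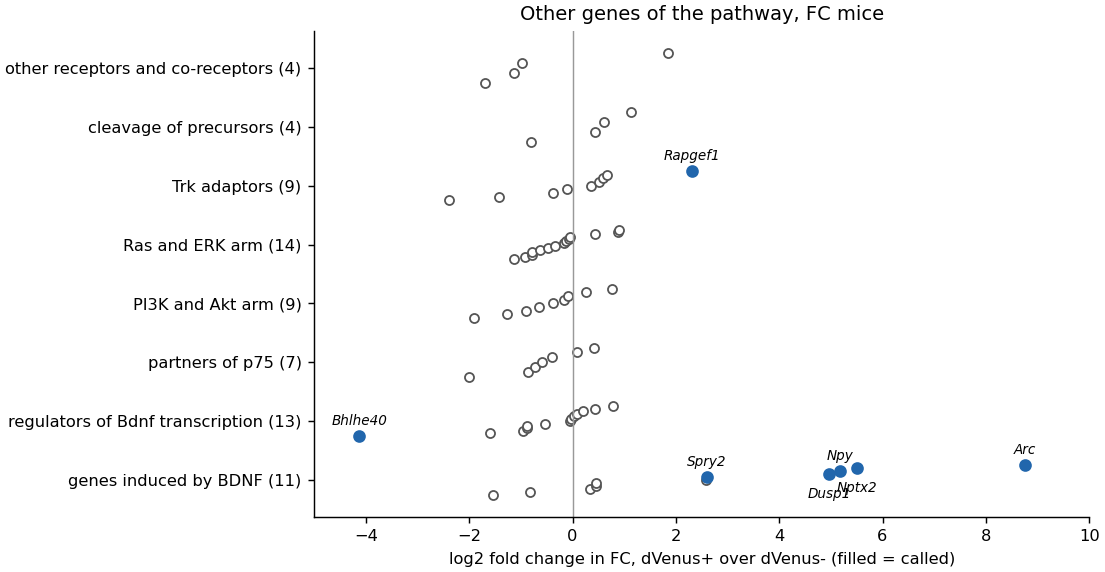
Log2 fold change in FC, dVenus+ over dVenus- cells, of the other pathway genes that passed the count filter, by list (number of genes in parentheses); filled points were called and are named. Of 71 genes 7 were called, 5 of them in the list of genes induced by BDNF.

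Over all mice 66 list genes were tested, and 5 were called higher and 2 lower. Of all genes tested there 2.81% were called higher and 3.24% lower. The list genes called higher were Arc, Nptx2 (5.56 ± 0.86), Npy (5.21 ± 0.90), Spry2 (2.43 ± 0.50) and Lingo1 (2.28 ± 0.53, higher in 16 of 19 mice). Those called lower were Bhlhe40 (-3.36 ± 0.84) and Akt1 (-2.06 ± 0.57), the latter at an edgeR adjusted p of 0.0204. Akt1, a kinase that the Trk receptors activate through PI3K, was lower in dVenus+ cells in 16 of 19 mice, and it was not called without mice 06, 07 and 14. In NS 1 of 59 list genes was called, Arc, where 0.0489% of all genes tested were. In HC 0 of 59 were called, where 0% of all genes tested were (edgeR, 5 list genes at an unadjusted p under 0.05).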

How the data were processed

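RNA of 10 pooled cells per library had been amplified by Smart-seq2 and made into libraries with Nextera XT, which does not mark strand. The deposited values are raw counts: the authors aligned single reads to mm10 with TopHat2 2.0.13, kept unique alignments and assigned them to NCBI gene models in htseq-count (HTSeq 0.6.0). Entries that name no gene were left out, and reads outside genes made up between 16.4% and 59.7% of the unique alignments of a library. A deposited table of all libraries was not used.

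dVenus+ and dVenus- libraries were compared with edgeR 4.0.16 in R 4.3.3 (TMM, estimateDisp, glmQLFit with legacy=FALSE, glmQLFTest) with the mouse as block, on genes with at least 10 counts in as many libraries as there were mice, or in 3 libraries for the interactions of cell type with training. P-values were adjusted by the Benjamini-Hochberg method over all genes tested. The standard error is the log2 fold change divided by the root of F. Levels are CPM with TMM factors over 38 libraries. Mice are the replicates, and both libraries of a mouse come from 1 animal; their deviations from the group means over 8885 genes correlated at a median of 0.048 among FC, -0.016 among NS and 0.025 among HC mice. The scripts were tested on simulated data. DESeq2 1.42.0 was an alternative, as were other scaling, no filter, no block and fewer mice.

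The genes named besides the 6 are the list genes called in any comparison, the gene with the smallest p in each list in FC, and the 3 genes closest to each member, with a few uncalled list genes chosen after their values were seen. Of the listed genes 2 are not reported here. Members and lists were chosen with earlier results of these data known.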

Additional observations from a re-analysis of the deposited data

Results flagged for a closer look

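Among the 12 groups of 4 NS libraries (6 genes, 2 kinds of cell), 2 held a value far from the other 3 by Dixon's criterion. Chance alone meets it in about 1 group in 20 if values are normally distributed. It was applied to CPM without a log, some of them at 0, so that rate need not hold here. Ntf3 was at 11.9 CPM in the dVenus+ library of mouse 20 and at most 0.25 in the other 3. Nrn1 was at 398 CPM in the dVenus- library of mouse 19 and between 169 and 201 in the other 3.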

How the results depend on the processing

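Bdnf kept a positive log2 fold change in all 22 alternative fits of FC (1.96 to 3.11), 9 of NS (2.70 to 4.44), 8 of HC (0.84 to 3.10) and 25 over all mice (2.31 to 2.77), and it was called in 20, 1, 0 and 25 of them. The FC call was lost within the series of 2 and of 4 mice, where 0 members and 0 list genes were called, with fewer mice by construction. In the series of 6 mice 1 list gene was called. Leaving out each mouse in turn left 1 member called in FC, 0 in NS, 0 in HC and 1 over all mice, and 5 to 8 list genes in FC, against 7 with every mouse. Without mice 03 and 05 the list genes called were 4.

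DESeq2's Wald test called 2 members in FC (Bdnf and Ntf3) and 1 in NS (Bdnf), passed 1 for an interaction (Ntf3) and called 14 list genes in FC. The cause was not tested. Of 332 alternative values for the members, interactions included, 315 kept their direction and their side of the threshold. Directions turned for members and named genes that had not passed: Nrn1 in the FC series of 6 mice (0.60), Ntf3 in those of 2 and 4 mice (0.18 and 0.23), Ntrk2 in that of 2 mice (-1.94) and without mice 03 and 05 (-0.30), Ntrk3 in that of 2 mice (-0.29) and Furin in that of 4 mice (-1.48). Leaving out 1 mouse, Ntrk2 ran from -0.16 (without mouse 05) to 0.41 (without mouse 01) in FC and from -1.64 (without mouse 18) to 0.16 (without mouse 20) in NS, so its sign rested on single mice.

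Without the replicate block, that is, ignoring the pairing of libraries within a mouse, the log2 fold change of Bdnf was 2.45 in FC (edgeR, adjusted p = 4.00e-06), 2.91 in NS, 0.88 in HC and 2.31 over all mice, and no call of a member changed. Npy lost its call there in FC (1.32) and over all mice (1.61), whereas Lingo1 (1.89) gained one in FC.

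Genes called in FC numbered 422, but 1651 with DESeq2, 137 with edgeR's older quasi-likelihood method (chosen after seeing the data), 154 without mice 06, 07 and 14, 277 without mice 03 and 05, and 0, 12 and 15 in the series of 2, 4 and 6 mice. In NS they numbered 4 (3 higher, 1 lower), but 11 with DESeq2's size factors (5 higher, 6 lower), 1 without the count filter, 671 with DESeq2, 13 without the block, 0 with the older method and 0 to 2 without 1 mouse. In HC they were 0, but 625 with DESeq2 and 2 with the older method. Over all mice they were 538, but 1795 with DESeq2, 153 with the older method and 266 without mice 06, 07 and 14. Ntf3 and Ngfr are limited by sparse reads, with 10 or more in 16 and 7 of 38 libraries. For Ntf3 this did not follow depth. FC mouse 07 had 0 Ntf3 reads in dVenus+ cells with 11151828 reads on genes. FC mouse 11 had 375 in dVenus- cells with 11022616.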

Other observations

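2 dVenus- libraries held much Bdnf with little or no Arc. In HC mouse 17 Bdnf was at 319 CPM, Scg2 at 833 and Nptx2 at 37.8, while Arc had 51 reads (5.02 CPM), and the Bdnf, Scg2 and Nptx2 values were each the highest of its HC dVenus- group. In FC mouse 09 Bdnf was at 214 CPM and Scg2 at 342, the highest of the 12 FC dVenus- libraries for both genes, with 0 Arc reads. The library with the most Arc among the FC dVenus- libraries, that of mouse 14 at 163 CPM, held 153 CPM of Bdnf and 43.3 of Nptx2, the highest Nptx2 of that group. In NS mouse 18 Bdnf had 15 reads in dVenus- cells and Scg2 had 1594, whereas in HC mouse 16 both were low, with 22 and 37 reads.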
